A study of Mus musculus with 4 samples.

Results

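The chemokine system of mouse hepatocytes and mouse liver was described through the 52 genes, of 22180 on the array, whose symbol is Ccl, Cxcl, Ccr or Cxcr followed by a number, or *Cx3cl1*, *Cx3cr1*, *Xcl1* or *Xcr1*. They comprised 34 ligands and 18 receptors, and the gene identifiers of all 52 carried the same symbol in a RefSeq gene table. Chemokines are small secreted proteins that draw leukocytes along a concentration gradient by binding G protein-coupled receptors on those cells, and many are transcribed within hours of an inflammatory signal through the transcription factor NF-kB or through interferon. In the liver, hepatocytes, Kupffer cells, stellate cells and the sinusoidal endothelium all make ligands, while most receptors sit on leukocytes. The atypical receptors bind chemokines without signalling through G proteins and clear them from the tissue.

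Gene expression was profiled on 4 Affymetrix Mouse Gene 2.0 ST arrays, 1 for each of 4 conditions, to ask what loss of the autophagy kinase ULK1 changes in fed hepatic cells. AML12, a male mouse hepatocyte line from a CD-1 background, had received a negative control siRNA or *Ulk1* siRNA at 10 nM for 72 h by lipid transfection. Male C57N1/6N mice, 6 weeks of age by the labels, had received 40 ug of negative control siRNA or of the same *Ulk1* siRNA by hydrodynamic tail vein injection, 3 times at intervals of 24 h, and their livers were taken at 72 h. No group was free of siRNA, so the wild-type labels of the controls refer to animals and cells that also underwent delivery, and the liver arrays read the RNA of all liver cells and not of hepatocytes alone. The methods describe pools of 4 samples without assigning them to arrays, and 1 pool per array was assumed here. With 1 array per condition there is no replicate check, and no difference below carries an error or a p-value.

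The deposited values are log2 expression, so that a difference of 1 is a 2-fold difference. A gene was past the level filter of a comparison if at least 1 of its arrays read it at or above the array's median over genes, which was 4.35 and 4.36 in AML12 cells and 4.41 and 4.42 in liver. Genes under that level are called near background. As a second mark of silence, the 95th percentile of 1105 olfactory receptor genes lay between 3.66 and 3.79 on the 4 arrays. *Ulk1* itself read 7.47 with control siRNA and 7.06 with its own siRNA in AML12 cells (difference -0.40), and 8.73 and 8.46 in liver (-0.27). Of the hepatocyte markers, *Alb*, *Ttr* and *Hnf4a* read 10.07, 11.72 and 8.47 in control AML12 cells, but *Cps1*, *Cyp2e1* and *Tat* were near background there at 3.44, 3.01 and 3.69, whereas all 8 hepatocyte markers measured were past the filter in liver. Of 4 cholangiocyte markers, *Krt19*, *Krt7* and *Sox9* read 9.88, 8.02 and 9.34 in control AML12 cells and *Epcam* was near background at 2.80.

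Between 16 and 19 of the 52 family members reached the array median on any of the 4 arrays. In all, 16 members passed the level filter in both systems, 3 in AML12 cells only and 5 in liver only. The other 28 were near background in both, with levels from 1.51 to 4.34 over the 4 arrays, and 19 of these lay under the olfactory receptor level in both systems as well. Only 3 of the 18 receptors passed the filter, *Ccr7*, *Cx3cr1* and *Cxcr4*. The measured part of the family was therefore made up almost wholly of ligands.

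**Figure D1:**
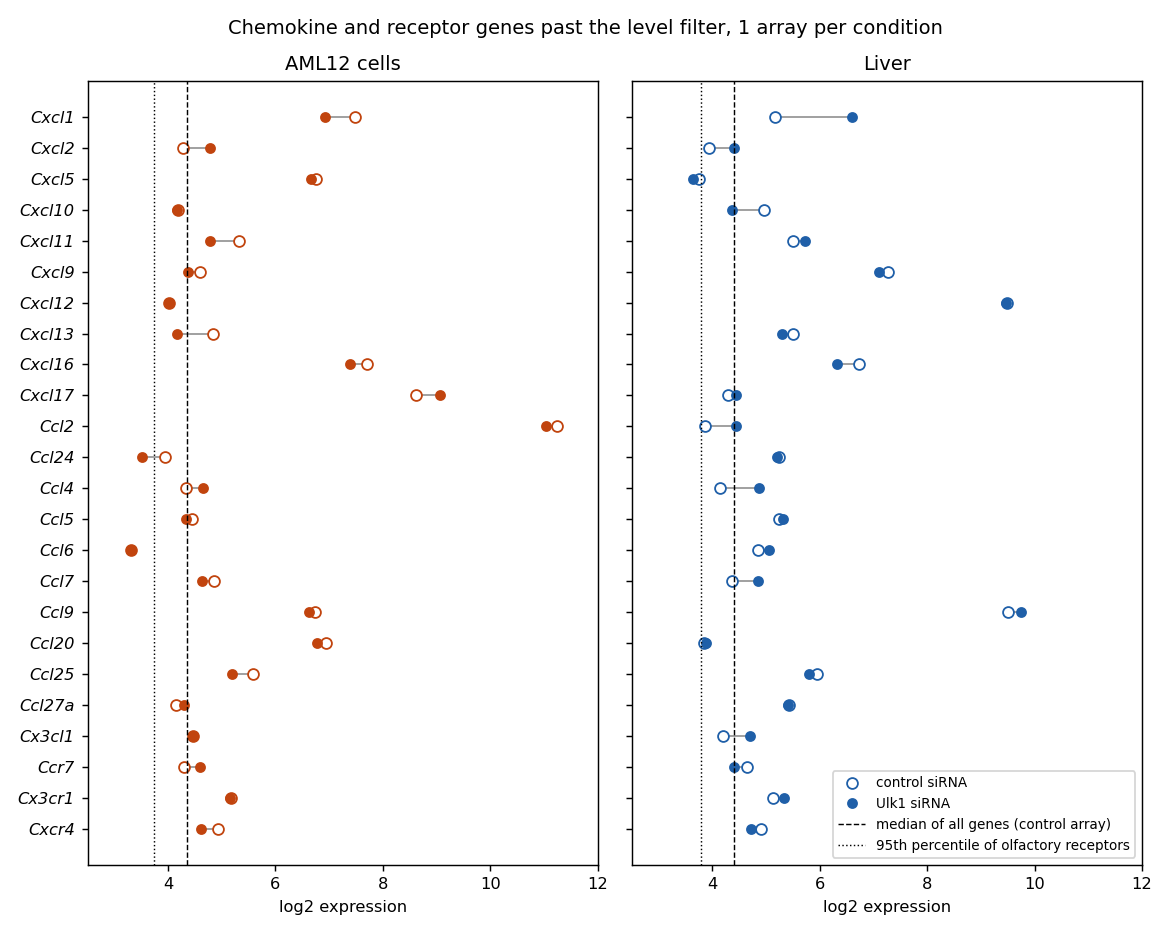
Log2 expression (x axis) of the 24 chemokine and receptor genes past the level filter in AML12 cells (left) or in liver (right), ordered by role. Open circles are control siRNA and filled circles *Ulk1* siRNA, 1 array each, the dashed line is the control array's median over genes and the dotted line the 95th percentile of olfactory receptor genes. The longest line joins the liver values of *Cxcl1*, 5.16 and 6.60, and the liver values of *Cxcl12* lie on top of each other at 9.48 and 9.47.

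The upstream sequences of 5 inducible ligands are printed here because each holds a match to the kB consensus, the sequence bound by NF-kB, and their values with *Ulk1* siRNA can be read beside it. Each is the 170 bases before the RefSeq transcription start (GRCm38.p6), 5′ to 3′ on the strand of the gene, with matches to the kB consensus on either strand in capitals and overlapping matches merged. The first 4 genes lie on chromosome 5, at chr5:90891075-90891244 for *Cxcl1*, chr5:90903729-90903898 for *Cxcl2* and chr5:90785931-90786100 for *Cxcl3*, all on the plus strand, and at chr5:92348890-92349059 on the minus strand for *Cxcl10*. *Ccl20* lies at chr1:83116596-83116765 on the plus strand, and its match is on the opposite strand.
Cxcl1: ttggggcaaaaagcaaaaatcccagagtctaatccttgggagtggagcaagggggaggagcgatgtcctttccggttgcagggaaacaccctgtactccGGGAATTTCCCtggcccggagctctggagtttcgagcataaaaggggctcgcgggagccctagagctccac
Cxcl2: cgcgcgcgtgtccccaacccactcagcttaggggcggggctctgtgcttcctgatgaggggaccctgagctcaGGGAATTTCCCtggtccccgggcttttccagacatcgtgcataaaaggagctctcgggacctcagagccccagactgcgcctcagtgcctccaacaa
Cxcl3: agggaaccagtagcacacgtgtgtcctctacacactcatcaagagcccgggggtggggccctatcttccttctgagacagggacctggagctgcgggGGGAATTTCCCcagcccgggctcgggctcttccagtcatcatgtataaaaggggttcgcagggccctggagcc
Cxcl10: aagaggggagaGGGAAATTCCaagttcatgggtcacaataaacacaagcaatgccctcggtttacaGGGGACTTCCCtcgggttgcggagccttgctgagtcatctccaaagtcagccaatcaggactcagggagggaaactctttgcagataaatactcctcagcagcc
Ccl20: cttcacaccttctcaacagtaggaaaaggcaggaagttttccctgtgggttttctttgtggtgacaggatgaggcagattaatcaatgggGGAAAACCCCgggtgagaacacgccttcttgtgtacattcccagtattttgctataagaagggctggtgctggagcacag

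*Cxcl1*, *Cxcl2* and *Cxcl3*, neighbours that encode close relatives, shared the match GGGAATTTCC, which began at positions -71, -97 and -73, where -1 is the last base before the start. In each of them the letters ATAAAAGG, a TATA box sequence, followed 37 to 44 bases after the first base of that match. These letters were found on either strand of 1.76% of all 32851 promoter windows of 300 bases (250 before to 50 after the start), and 0.107% held them together with a kB consensus match. Of the other members, *Xcl1*, *Ccl8* and *Ccl9* held them as well, and of these only *Ccl9* also held a kB consensus match. *Cxcl10* had a match that began at -159 and overlapping matches from -104 on. The 38 members with a promoter window in the RefSeq table had 42 windows, of which 11 held a kB consensus match, against 8.46% of all windows. A match describes the letters in the window and not binding.

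The neutrophil-attracting ligands held the largest difference of the family. *Cxcl1* encodes a ligand of the receptor CXCR2 that brings neutrophils out of the blood. It read 5.16 in control liver and 6.60 in *Ulk1* siRNA liver, and 7.49 in control and 6.92 in *Ulk1* siRNA AML12 cells. It was thus higher by 1.43 in liver (2.70-fold) and differed by -0.57 in AML12 cells, where 67.5% of the control signal was left. Its liver difference ranked 19 from the top among the 11602 genes past the level filter. *Cxcl2*, which encodes a second CXCR2 ligand, read 4.27 and 4.78 in AML12 cells and 3.93 and 4.41 in liver, just under the filter there. Its differences of 0.51 and 0.47 lay on the same side in both systems. *Cxcl5*, a CXCR2 ligand of epithelial cells, read 6.75 and 6.67 in AML12 cells and was near background in liver at 3.75 and 3.64. *Cxcl3* was near background throughout, at 3.64 and 2.45 in AML12 cells and 1.74 and 2.06 in liver, so that its AML12 difference of -1.19 lay between values that silent genes also take. *Cxcl15*, a lung epithelial ligand, stayed under the olfactory receptor level on all 4 arrays. Of the genes that share the promoter match printed above, only *Cxcl1* was at or above the median on both arrays of a system, since *Cxcl2* passed in AML12 cells only through the *Ulk1* siRNA array, where it read higher.

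Markers of the cells that answer these ligands were near background on the arrays. None of 7 neutrophil markers reached the median on any array, their log2 summed signal was 5.89 in control and 5.85 in *Ulk1* siRNA liver, and *S100a8* read 2.33 and 2.17. The CXCR2 gene *Cxcr2* and its relative *Cxcr1* were near background in both systems. In liver *Cxcr2* (4.27 and 4.19) and the neutrophil marker *Csf3r* (4.36 and 4.26) still lay over the olfactory receptor level. The other neutrophil markers stayed under that level in liver. Of 12 macrophage and monocyte markers, 10 passed the filter in liver. Of these 8 were above 0, beside 45.8% of all genes past the filter, and the median difference was 0.15. The log2 summed signal of the 12 was 10.62 in control and 10.78 in *Ulk1* siRNA liver. Whole liver RNA cannot tell fewer cells of a type from less RNA per cell, and the part of the macrophages in the *Cxcl1* difference was not tested.

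The interferon-induced ligands encode attractants of activated T cells through the receptor CXCR3, and in liver their differences had no common sign. *Cxcl10* read 4.96 in control and 4.37 in *Ulk1* siRNA liver, a difference of -0.59 that left 66.4% of the control signal, and was near background in AML12 cells at 4.19 and 4.17. *Cxcl9* read 7.27 and 7.10 in liver and 4.59 and 4.37 in AML12 cells. *Cxcl11* read 5.33 and 4.77 in AML12 cells, a difference of -0.55, but 5.50 and 5.72 in liver. Their differences in liver thus ran from -0.59 to 0.22, whereas in AML12 cells both ligands past the filter were below 0, and the receptor gene *Cxcr3* was near background in both systems.

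The homeostatic and mucosal CXC ligands included the steadiest member of the family. *Cxcl12*, which encodes the ligand of CXCR4 that retains blood stem cells in their niche and is made by mesenchymal and endothelial cells, read 9.48 in control and 9.47 in *Ulk1* siRNA liver and was near background in AML12 cells at 4.02 and 4.01. Its difference was -0.01 in both systems. Beside it in liver, all 8 stellate cell markers past the filter were below 0, against 54.2% of all genes, with a median of -0.84. Of these 8, 3 were lower by 1 log2 (*Reln*, *Lrat* and *Ecm1*), against 0.655% of all genes. The log2 summed signal of the stellate markers was 10.77 in control and 9.97 in *Ulk1* siRNA liver. The 8 sinusoidal endothelial markers had a median difference of -0.05. The part of the stellate and endothelial cells in the *Cxcl12* level was not tested.

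*Cxcl13*, which encodes the attractant that guides B cells into follicles, read 4.84 and 4.16 in AML12 cells and 5.51 and 5.29 in liver. Its AML12 difference of -0.68 left 62.3% of the control signal. *Cxcl16*, which encodes a membrane-bound ligand of CXCR6 that also takes up oxidized lipoprotein, read 7.70 and 7.38 in AML12 cells and 6.73 and 6.31 in liver. It was lower with *Ulk1* siRNA in both systems, by differences of -0.32 and -0.42. *Cxcl17*, a ligand of mucosal epithelia, read 8.62 and 9.07 in AML12 cells and 4.28 and 4.43 in liver. Its AML12 difference of 0.44 was in the opposite direction to that of most ligands measured in the line.

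Of the inflammatory CC ligands, 7 of 12 passed the filter in liver. Of these 6 were above 0, beside 45.8% of all genes, with a median difference of 0.24. *Ccl2*, which encodes the main attractant of monocytes through CCR2, read 11.25 and 11.04 in AML12 cells and 3.86 and 4.43 in liver, from near background to just past the filter. *Ccl7*, a second CCR2 ligand, read 4.37 and 4.85 in liver and 4.85 and 4.64 in AML12 cells. *Ccl4*, which encodes a ligand made by activated macrophages and lymphocytes, read 4.14 and 4.87 in liver and 4.33 and 4.64 in AML12 cells. The liver differences of these 3 genes were 0.57, 0.48 and 0.73, and each had a control level under the liver median, so that they passed the filter only through the *Ulk1* siRNA array. A gene that passes in this way has to differ upwards, and their number is no support for a shift of the group.

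The other CC ligands measured in liver had control levels past the filter and smaller differences. *Ccl9*, a rodent ligand of CCR1 that attracts myeloid cells, read 9.51 and 9.75 in liver and 6.74 and 6.62 in AML12 cells. *Ccl6*, its close relative, read 4.84 and 5.05 in liver and 3.31 on both AML12 arrays. *Ccl5*, which encodes an attractant of T cells, read 5.24 and 5.32 in liver and 4.44 and 4.34 in AML12 cells. *Ccl24*, which encodes an eosinophil attractant, read 5.24 and 5.21 in liver and was near background in AML12 cells at 3.95 and 3.52. Liver differences of these 4 genes lay between -0.03 and 0.24, within the -0.68 to 0.63 that held 95% of the genes past the filter. Those of *Ccl2* (0.57) and *Ccl7* (0.48) lay within that range as well. That of *Ccl4* (0.73) lay outside it, at rank 187 from the top of 11602 genes. It lay within the -0.93 to 0.78 that held 95% of olfactory receptor genes in liver. *Ccl3*, *Ccl8*, *Ccl11*, *Ccl12* and *Ccl26* were near background in both systems, and *Ccl26* read 2.28 and 3.19 in AML12 cells.

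Among the remaining CC ligands, *Ccl20*, which encodes the CCR6 ligand of epithelia, read 6.95 and 6.77 in AML12 cells and was near background in liver at 3.85 and 3.88. *Ccl25*, which encodes the CCR9 ligand that draws T cells to the gut, read 5.58 and 5.19 in AML12 cells and 5.95 and 5.80 in liver. *Ccl27a*, which encodes a CCR10 ligand of skin, read 5.43 and 5.40 in liver and 4.15 and 4.30 in AML12 cells. It was the only member with several probe sets, and the other probe set was near background throughout (3.66 and 4.08 in AML12 cells, 3.91 and 4.02 in liver), so the liver level rests on the brighter of them. *Ccl1*, *Ccl17*, *Ccl22*, *Ccl28* and the C ligand *Xcl1* were near background. *Cx3cl1*, which encodes fractalkine, a membrane-tethered attractant, read 4.46 on both AML12 arrays and 4.19 and 4.71 in liver, where it too passed only through the *Ulk1* siRNA array.

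The 3 receptors past the filter lay close to the array medians. *Cxcr4*, the CXCL12 receptor, read 4.94 and 4.62 in AML12 cells and 4.90 and 4.71 in liver. *Cx3cr1*, the fractalkine receptor of monocytes, read 5.17 and 5.16 in AML12 cells and 5.12 and 5.32 in liver. *Ccr7*, which guides dendritic cells and T cells to lymph nodes, read 4.30 and 4.60 in AML12 cells and 4.63 and 4.41 in liver. The widest of their differences was -0.32, for *Cxcr4* in AML12 cells. Of the 15 receptors near background, *Ccr1* had the widest difference in liver, from 2.02 to 2.68, both under the olfactory receptor level.

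Counted over the family, *Ulk1* siRNA moved few members past a fixed size. In AML12 cells 0 of 19 members past the filter were higher and 0 were lower by 1 log2, where 0.332% and 1.23% of the 11437 genes past the filter were. At 1.5-fold, 0 members were higher and 1 was lower (*Cxcl13*), where 2.25% and 3.55% of those genes were, and *Cxcl13* passed only through the control array, where it read higher. In liver 1 of 21 members was higher (*Cxcl1*) and 0 were lower by 1 log2, where 0.509% and 0.655% of 11602 genes were. At 1.5-fold, 2 were higher (*Cxcl1* and *Ccl4*) and 1 was lower (*Cxcl10*), where 3.03% and 3.77% of genes were. *Ccl4* passed only through the *Ulk1* siRNA array and *Cxcl10* only through the control array, in each case the array on which it read higher, which leaves *Cxcl1* alone at this size among members past the median on both liver arrays. With so few members past the filter, each of these counts turns on a single gene or 2.

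The direction of the smaller differences was uneven in AML12 cells. Of the 19 members past the filter there, 14 were below 0 and 4 above, with a median of -0.17, whereas 47.0% of all genes past the filter were below 0 and their median was 0.02. In liver 11 members were above 0 and 10 below, with a median of 0.09 beside -0.03 for all genes, but 5 of them passed only through the *Ulk1* siRNA array and 2 only through the control array. Of the 14 members at or above the median on both liver arrays, 6 were above 0 and 8 below, and the median turned to -0.018. The 4 members above 0 in AML12 cells were *Cxcl2*, *Cxcl17*, *Ccl4* and *Ccr7*, but all of these except *Cxcl17* passed the filter only through the *Ulk1* siRNA array, and *Cxcl13* and *Ccl5* passed only through the control array, so that the filter set their signs. Of the 14 members at or above the median on both AML12 arrays, 12 were below 0 and 1 above, with a median of -0.21. The share of all genes below 0 was not counted under this stricter filter, here or in liver. The counts under it therefore describe the members only. All of the family differences in AML12 cells except that of *Cxcl3* lay within 1 log2, and those of olfactory receptor genes spanned -0.65 to 0.63 in 95% of cases. Other expression moved with the AML12 groups as well. The 6 hepatocyte markers past the filter were all above 0, beside 52.9% of all genes, with a median of 0.65. Of these, *Cps1* and *Serpina1a* passed only through the *Ulk1* siRNA array. The cholangiocyte markers *Krt19*, *Krt7* and *Sox9* differed by -1.03, -0.91 and 0.27. *Cd14* read 9.52 in control and 8.56 in *Ulk1* siRNA cells. Their part in the chemokine values was not tested.

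**Figure D2:**
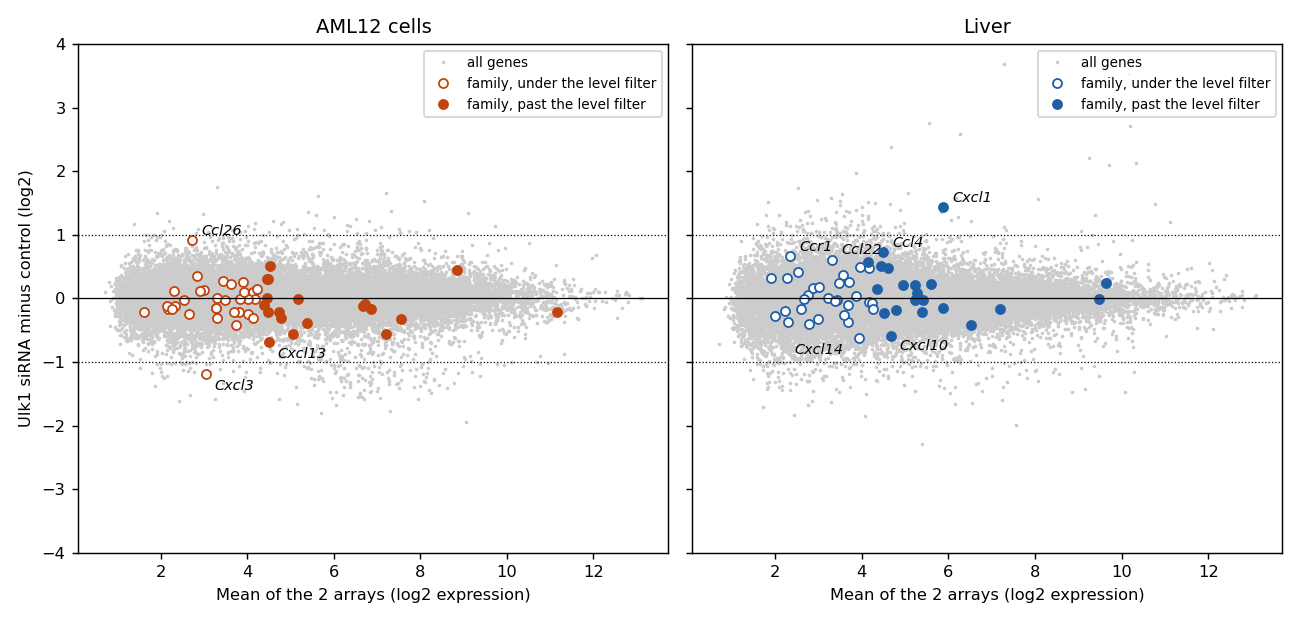
Log2 difference, *Ulk1* siRNA minus control (y axis), against the mean log2 expression of both arrays (x axis) in AML12 cells (left) and liver (right). Grey dots are all genes, filled circles family members past the level filter and open circles those under it, dotted lines mark 1 log2, and names are given from 1.5-fold. *Cxcl1* in liver, at 1.43, is the only filled circle past a dotted line, and *Cxcl3* in AML12 cells, at -1.19, is an open circle.

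The 2 systems were then set side by side for the 16 members past both filters. Of these, 7 had the same sign in AML12 cells and in liver, 7 were below 0 in AML12 cells and above 0 in liver, 1 (*Ccr7*) the reverse, and *Cx3cl1* had equal values on both AML12 arrays. *Ccl4* and *Cxcl17* were above 0 in both, and *Cxcl13*, *Cxcl16*, *Cxcl9*, *Ccl25* and *Cxcr4* below 0 in both. Several of these signs were set by the filter, since *Ccl4* and *Ccr7* in both systems, *Ccl5* and *Cxcl13* in AML12 cells and *Ccl2*, *Ccl7*, *Cx3cl1* and *Cxcl17* in liver passed through a single array. Among the 8 members at or above the median on all 4 arrays, *Ccl25*, *Cxcl16*, *Cxcl9* and *Cxcr4* were below 0 in both systems, and *Ccl9*, *Cx3cr1*, *Cxcl1* and *Cxcl11* were below 0 in AML12 cells and above 0 in liver. *Cxcl1* was the member whose differences lay farthest apart, -0.57 and 1.43, followed by *Ccl2* and *Cxcl11*. Shares over all genes were not counted for these sign patterns, so the counts describe the members only. Whether the systems differ was not tested, since each difference comes from a single pair of arrays.

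**Figure D3:**
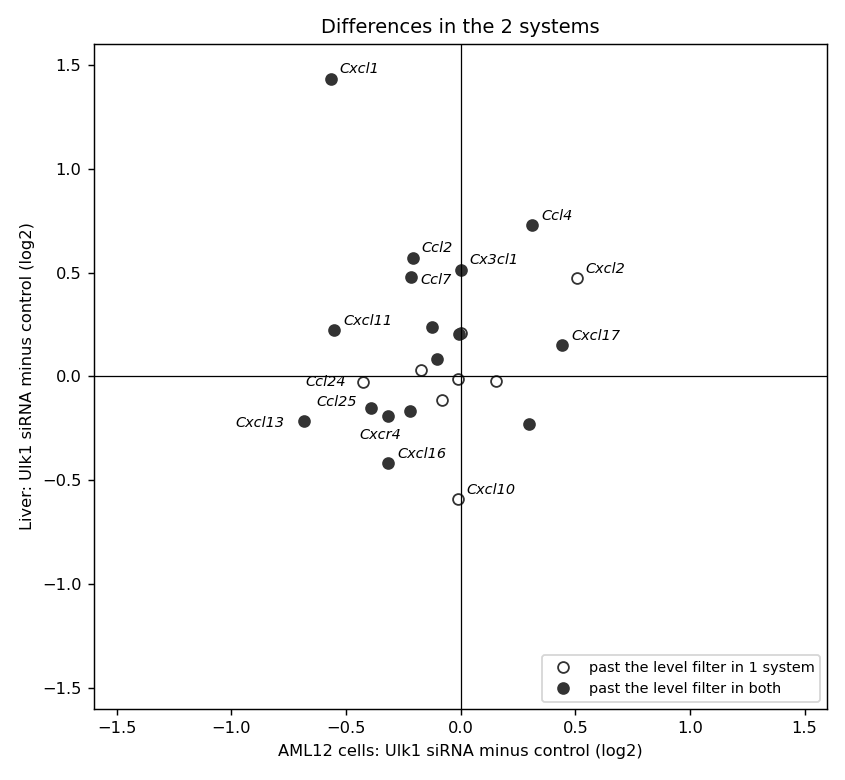
Log2 difference with *Ulk1* siRNA in AML12 cells (x axis) against that in liver (y axis) for the 24 members past the level filter in both systems (filled) or in 1 (open), from 1 array per condition. *Cxcl1* stands alone at -0.57 and 1.43, and all other members lie within 0.73 of 0 on either axis.

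The control arrays showed how far the hepatocyte line and whole liver differed in which ligands they carried. Strain, culture, cell mixture and the way of siRNA delivery differ between them and cannot be told apart. Of 22 members past the filter in this comparison, 5 were higher in control AML12 cells by 1 log2 and 6 were higher in control liver, while 21.7% and 14.9% of all 12363 genes were. The median over members was -0.25, beside 0.24 over all genes. Of these members, 6 passed only through the control AML12 array and 6 only through the control liver array, so that the filter set their signs. Of the 10 members past the filter on both control arrays, 1 was higher in AML12 cells by 1 log2 and 2 were higher in liver. Over all genes past it on both control arrays, 1984 were higher in AML12 cells by 1 log2 and 952 in liver.

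The 5 ligands higher in control AML12 cells attract neutrophils (*Cxcl1*, *Cxcl5*), monocytes (*Ccl2*) or CCR6-bearing lymphocytes (*Ccl20*), or belong to mucosal epithelia (*Cxcl17*). The difference, control AML12 minus control liver, was 7.39 for *Ccl2*, 4.34 for *Cxcl17*, 3.10 for *Ccl20* and 2.32 for *Cxcl1*, with *Cxcl5* between these last genes (6.75 against 3.75). Only *Cxcl1* was past the filter on both control arrays, and it was 5.01-fold higher in the line. For the other 4 genes the liver value was near background, so that no fold is given. The 6 ligands higher in control liver were *Cxcl12* (-5.46), *Ccl9* (-2.77), *Cxcl9* (-2.68), *Ccl6* (-1.53), *Ccl24* (-1.29) and *Ccl27a* (-1.28). Of these, *Ccl9* and *Cxcl9* were past the filter on both control arrays, 6.83-fold and 6.39-fold higher in liver, and the other 4 were near background in the line. *Cxcl12* and *Ccl2* thus mark opposite ends of the comparison, each well measured in 1 system and near background in the other. None of the 3 receptors differed by more than 0.33.

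Marker lists of other liver cells moved with this comparison. Of the macrophage and monocyte markers, 8 of 10 past the filter were lower in control AML12 cells by 1 log2, beside 14.9% of all genes. Among them were *Vsig4* and *Cd5l*, while *Cd14*, which hepatocytes can also make, was higher by 5.08. All 8 endothelial and all 8 stellate markers past the filter were lower in the line, beside 39.6% of all genes, with medians of -3.65 and -4.08. In control AML12 cells 10 of the 12 macrophage and monocyte markers were near background, and their log2 summed signal of 9.74, against 10.62 in control liver, was mostly that of *Cd14* (9.52). The log2 summed signals in control AML12 cells and control liver were 6.95 and 10.77 for endothelial markers and 7.26 and 10.77 for stellate markers. The part of these cells in the levels of *Cxcl12*, *Ccl9*, *Cxcl9*, *Ccl6* and *Ccl24* was not tested.

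**Figure D4:**
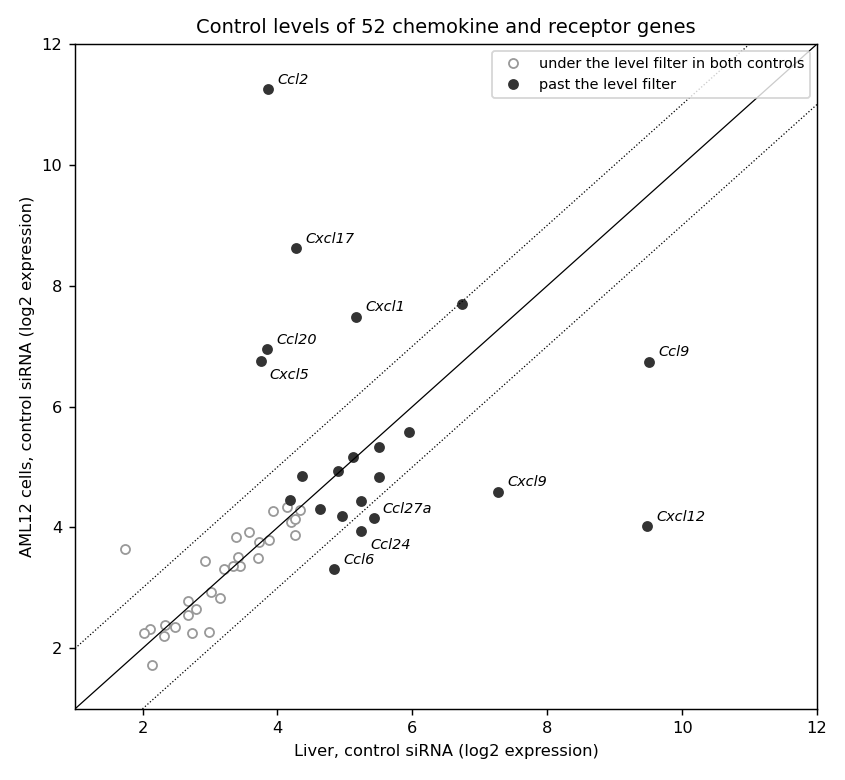
Log2 expression of the 52 members in control liver (x axis) and control AML12 cells (y axis), 1 array each. Filled circles are members past the level filter in either control and open circles the others, the solid line marks equal values and the dotted lines a difference of 1 log2, and names are given to filled circles outside them. *Ccl2* lies at 3.86 and 11.25 and *Cxcl12* at 9.48 and 4.02.

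The genes that induce, receive and shape chemokine signals were read from 8 lists and a short list of chemokines with other names, 101 genes in all, of which 95 were measured. None of the 64 past the filter in AML12 cells and none of the 71 in liver differed by 1 log2, and the medians were -0.04 and 0.00. At 1.5-fold, 2 were higher and 1 was lower in AML12 cells, and 1 was higher and 2 were lower in liver, shares that can be read against the 2.25% and 3.55% of all genes in AML12 cells and the 3.03% and 3.77% in liver.

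NF-kB subunits and feedback inhibitors, which the kB consensus concerns, were all past the filter in AML12 cells. There 10 of 14 were below 0, beside 47.0% of all genes, with a median of -0.12. The inhibitor genes *Nfkbia*, *Nfkbie* and *Nfkbib*, whose products hold NF-kB in the cytoplasm, had differences of -0.53, -0.48 and -0.41. In liver 13 were past the filter with a median of 0.06, from -0.43 for *Nfkb2* to 0.40 for *Rel*. Between controls, 13 of the 14 were higher in AML12 cells and 9 by 1 log2, with *Nfkb2* at 3.86, *Tnfaip3* at 3.50 and *Tnip1* at 3.02, while 60.4% of all genes in this comparison were higher in AML12 cells and 21.7% by 1 log2. Of the members past the filter between controls that hold a kB consensus match, *Ccl20* and *Cxcl1* were higher in the line (3.10 and 2.32). *Ccl9*, *Ccl27a* and *Cxcl10* were lower there (-2.77, -1.28 and -0.77). *Ccl2* and *Cxcl5*, also higher in the line, had no promoter window to search. The part of the NF-kB list in these levels was not tested.

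Of the cytokines that induce chemokines, *Il33*, an alarmin released from damaged cells, read 7.26 and 6.43 in AML12 cells and 4.06 and 4.45 in liver. *Tnf*, *Il1b*, *Il6* and *Ifng* were near background on all 4 arrays. Among the receptors for such signals, *Il1r1*, the interleukin 1 receptor, read 6.71 and 7.45 in AML12 cells and 8.51 and 9.01 in liver, above 0 in both by 0.74 and 0.51. *Tlr2*, a sensor of bacterial lipoproteins, differed by 0.67 in AML12 cells and -0.57 in liver. In liver it passed only through the control array, on which it read higher. Of the 12 inducing cytokines, 3 passed the filter in AML12 cells and 4 in liver, with *Csf1* and *Il18* among them in both. The others were near background.

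Interferon gamma targets, which share their inducer with *Cxcl9*, *Cxcl10* and *Cxcl11*, had a median difference of 0.04 in AML12 cells and -0.17 in liver, where 8 of 11 past the filter were below 0 beside 54.2% of all genes. Between controls 8 of 12 were lower in AML12 cells by 1 log2, beside 14.9% of all genes. The median of the 12 was -1.76, with the widest gap for the GTPase gene *Iigp1* (-8.01). *Cxcl9* lay on the same side (-2.68), while *Cxcl10* and *Cxcl11* differed by -0.77 and -0.17.

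Downstream of the receptors, the G protein gene *Gnai1* read 4.49 and 5.28 in liver (0.80), and *Grk5*, whose kinase desensitizes receptors, read 5.30 and 4.48 (-0.82). The other receptor G proteins, kinases and arrestins past the filter in liver lay between -0.52 and 0.54. Of the atypical receptors, *Ackr2*, which scavenges inflammatory CC ligands, read 4.87 and 5.38 in AML12 cells and 5.85 and 5.61 in liver. *Ackr3*, which takes up CXCL12, read 4.73 and 4.17 in AML12 cells and 4.76 and 4.95 in liver. Both had differences of opposite sign in the 2 systems, none of which reached 1.5-fold. But *Ackr3* passed in AML12 cells only through the control array, where it read higher, so that the filter set its sign there. The protease gene *Mmp2*, whose product can cut CXCL12 and which stellate cells express, read 5.70 and 4.96 in liver. *Vcam1*, an adhesion molecule on which attracted leukocytes arrest, read 6.49 and 6.91 in liver and 9.27 and 9.21 in AML12 cells.

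**Figure D5:**
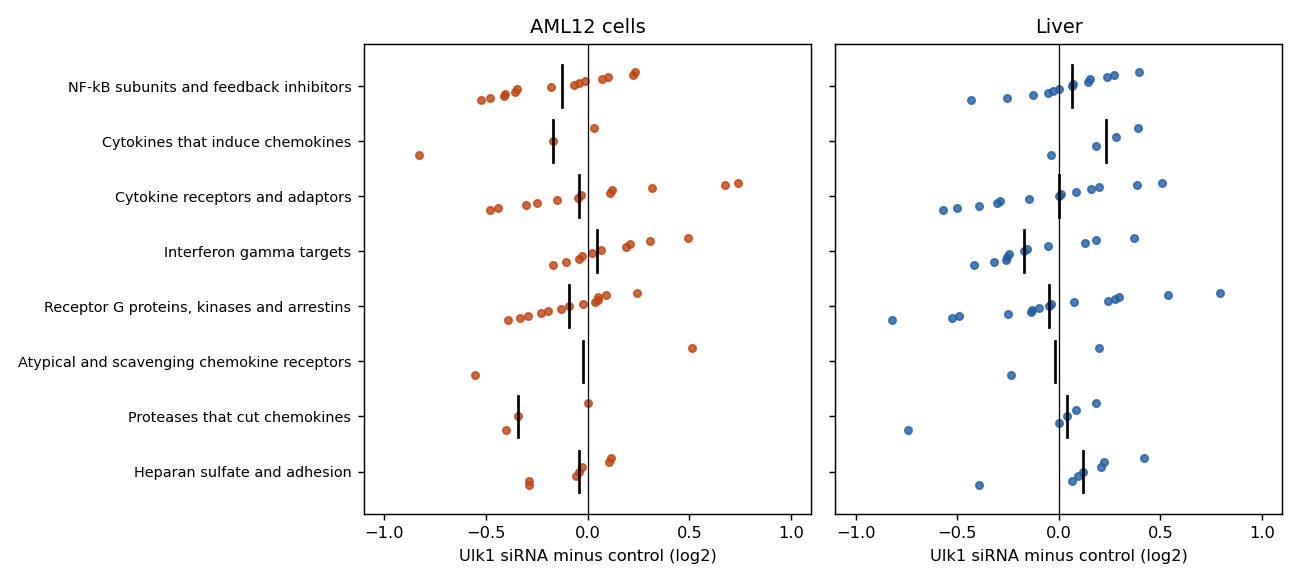
Log2 difference, *Ulk1* siRNA minus control (x axis), for the genes past the level filter in 8 chemokine pathway lists (rows) in AML12 cells (left) and liver (right). Each dot is a gene from 1 array per condition, and the black bar is the median of the list. No gene reaches 1 log2, and the NF-kB bar lies at -0.12 in AML12 cells and 0.06 in liver.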

How the data were processed

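The 4 arrays were measured by the study on pooled RNA. The authors deposited a log2 level for each probe set. RMA is named in the submitters' processing notes, and quantile normalization in Partek Genomics Suite in the methods. Whether the arrays were normalized together, the genome build and the assignment of pools are not given in the sources used here.

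Probe sets with 1 gene symbol (23521 of 41345) were collapsed to 22180 genes, and the probe set with the highest mean stood for a gene. Probe sets with several symbols (1820) were left out. Differences were taken between arrays, and genes past the level filter were counted at 1 log2 and at 1.5-fold. No test was run, and precision is limited by the number of arrays. The rule for named genes was every member past the level filter, with its 4 values, and in other lists up to 3 genes in each direction per comparison, plus *Ulk1*; other genes named as examples were chosen after their values were seen, such as *S100a8*, *Tnf*, *Pf4* and members near background. The members and all lists were chosen with earlier results of these data known. Promoter windows were read from RefSeq (GRCm38.p6) and searched on both strands.

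Alternatives were dropping the level filter, asking both arrays to pass it, the olfactory receptor level in its place, averaged probe sets, loess on level (span 0.3), median centring, pairwise quantile normalization, keeping probe sets with several symbols, and 1.5-fold as the threshold. The steps were tested on simulated data. Tables were handled with pandas 2.3.3 and numpy 2.4.6 under Python 3.11.15, loess came from statsmodels 0.14.6, and figures from matplotlib 3.10.9.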

Additional observations from a re-analysis of the deposited data

How the results depend on the processing

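With 1 array per condition no array could be left out. No paired analysis was possible because each group holds a single array. The differences of the 24 named members gave 240 values under the alternatives, of which 2 moved by 0.1 log2 or more. Both were for *Ccl27a* in AML12 cells, which gave 0.29 with the mean of its probe sets and -0.19 with probe sets of several symbols kept (0.15 as reported). Many of the other values could not move. Averaging leaves a member with a single probe set unchanged, and median centring shifts all genes of a comparison alike. The count of moved values is therefore no measure of robustness. Differences close to 0 could change sign. The *Cxcl1* difference in liver stayed between 1.42 and 1.48. Without the level filter all 52 members counted in each comparison, and 1 (*Cxcl3*) was lower by 1 log2 in AML12 cells. With the olfactory receptor level as the filter, 32 members counted in AML12 cells. With both arrays past the filter the liver median over members became -0.018, since ligands that passed through a single array dropped out, and in the control comparison 10 members counted, 1 higher in AML12 cells and 2 higher in liver. At 1.5-fold, 1 member was lower in AML12 cells, and 2 were higher and 1 lower in liver. The control comparison's median over members was -0.086 without a filter, -0.071 with the olfactory filter, -0.43 after loess on level and -0.48 with several symbols kept, and the cause was not tested. Over all genes, 124 were higher and 153 lower by 1 log2 in liver without the filter (59 and 76 with it), and with both arrays past it 23 were higher in liver and 952 lower in the control comparison (1839 as reported). At 1.5-fold the counts were 257 higher and 406 lower in AML12 cells, 352 and 437 in liver, and 4380 higher in control AML12 cells. Values near background limit most receptors: nothing can be said of their change from these arrays.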

Other observations

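Chemokine genes that occur in near-identical copies are named together on 33 probe sets with several symbols, which entered no comparison because their signal cannot be assigned to a copy. *Ccl21* copies, whose product brings T cells and dendritic cells to lymph nodes, were read by 9 such probe sets, from 4.01 to 4.64 in control AML12 cells and from 4.75 to 5.12 in control liver. All 9 were higher in control liver, and their differences with *Ulk1* siRNA in liver ran from -0.18 to 0.20. *Ccl19* copies, which bind the same receptor, were read by 13, with a median of 4.78 in control and 4.83 in *Ulk1* siRNA liver. *Ccl27* copies were read by 11, all higher in control liver than in control AML12 cells, with a median difference of -0.73. These probe sets share sequence and are not independent readings.

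Chemokines with other names were near background with 1 exception. *Ppbp*, a platelet ligand of CXCR2, read 4.92 in control and 4.35 in *Ulk1* siRNA liver. It passed only through the control array, where it read higher, so that the filter set its sign. *Pf4*, another platelet chemokine, was near background on all 4 arrays. *Cd209a*, listed as a dendritic cell marker, read 10.53 and 10.38 in AML12 cells and 8.64 and 9.44 in liver, whereas the other dendritic cell markers stayed at or under 4.58 on every array.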
